A study of Mus musculus with 51 samples.

Results

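Granulocyte-macrophage progenitors (GMP) were compared with haematopoietic stem cells (HSC) of wild-type mice. The comparison took the 5 arrays titled as wild-type GMP and the 5 titled as wild-type HSC, 10 of the 51 arrays of the series. The series set 4 sorted bone marrow populations of wild-type mice beside the same populations of Mll-AF9 knock-in mice, which carry the leukaemia fusion gene at the Mll locus. Total RNA of cells sorted by flow cytometry from whole bone marrow was amplified in a 2-cycle reaction and hybridised to Affymetrix arrays, 1 sample per array. Both wild-type groups carried no stated transgene and no stated treatment. No source used here gives the age, sex or zygosity of the mice, or the antibodies of the sort. Nothing in the labels ties a replicate to its own mouse or to a pool, so the spread that each p-value rests on may be technical. The other arrays used here were the 4 Mll-AF9 GMP and the 5 Mll-AF9 HSC samples, which share no array with the wild-type comparison.

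HSC are the rare marrow cells that renew themselves and can give rise to every blood lineage. GMP lie several divisions downstream and give rise to neutrophils, monocytes and related cells. On that path the stem cell transcription factors, among them Hlf, Mecom and Meis1, are known to be shut down. C/EBPalpha, PU.1, IRF8 and GFI1 are known to direct the granulocyte and monocyte fates, and promyelocytes fill their primary granules with serine proteases and myeloperoxidase. Stem cells are also known to cycle less and to make less protein than progenitors.

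All values below are log2 of the deposited intensity of 1 probe set per gene, and a difference is GMP minus HSC on that scale. Other probe sets of a gene did not always go the same way, and only some of them are given below. A probe set's level cannot be set against another's, so each gene is compared only with itself across samples. The background level, 4.77 on the log2 scale, was the 95th percentile of the mean level of 115 olfactory, vomeronasal and similar genes that blood cells do not use. Where a group lay below it, the fold is given as a lower bound against that level. Differences were tested with limma over 18193 genes with Benjamini-Hochberg adjustment, 5 against 5 samples, and a gene was called at an adjusted p below 0.05.

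Some libraries stood apart within their group before any comparison. HSC replicate 5 had a higher mean over the primary granule list than the other HSC, 8.94 against 7.84 to 8.15. The same library stood apart for the monocyte list, 6.47 against 5.50 to 5.67, and for the interferon-induced list, 8.69 against 7.11 to 7.55. It was lowest for the immediate-early list, 8.10 against 9.22 to 10.28. HSC replicate 4 held the highest late neutrophil mean of the 10 samples, 6.44. GMP replicate 1 had the largest gap between 3' and 5' control probe sets, a sign of RNA quality, at 4.70 against 2.59 to 4.14 in the other GMP and 3.09 to 4.35 in HSC. Y-linked genes lay between 6.17 and 6.97 in GMP replicates 1 to 3 and HSC replicates 1 and 2 and between 2.40 and 2.66 in the other 5 samples, so both groups held samples with and without Y-linked signal. Where leaving out 1 library moved the count of a list by more than 1.5 times, the count without it is given beside it.

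GMP and HSC differed at 6518 of 18193 genes. In GMP 4154 genes were higher, 22.8% of those tested, and 2364 were lower, 13%. Over 2-fold 1365 were higher and 1372 lower, and these counts were 1187 and 1512 after the arrays were quantile normalised again and 1167 and 1526 after each was centred on its median. Over 8-fold, with the brighter group above background, 39 genes were higher and 107 lower. All 5 GMP were above all 5 HSC for 15.6% of genes, and all 5 HSC above all 5 GMP for 9.17%. Both groups lay below background for 1190 of the higher and 315 of the lower genes. The median difference over all genes was 0.15, so a list median is read against that value. It was 0.19 over the 10547 genes above background in a group and 0.21 over the genes that set the background level. Of all calls 63.7% were higher in GMP. The share was 53.8% after quantile normalisation and 54.2% after centring, which took 0.09 and 0.08 off the median difference over all genes. In sorted cells measured in bulk, fewer cells of a type and less RNA per cell cannot be told apart.

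**Figure D1:**
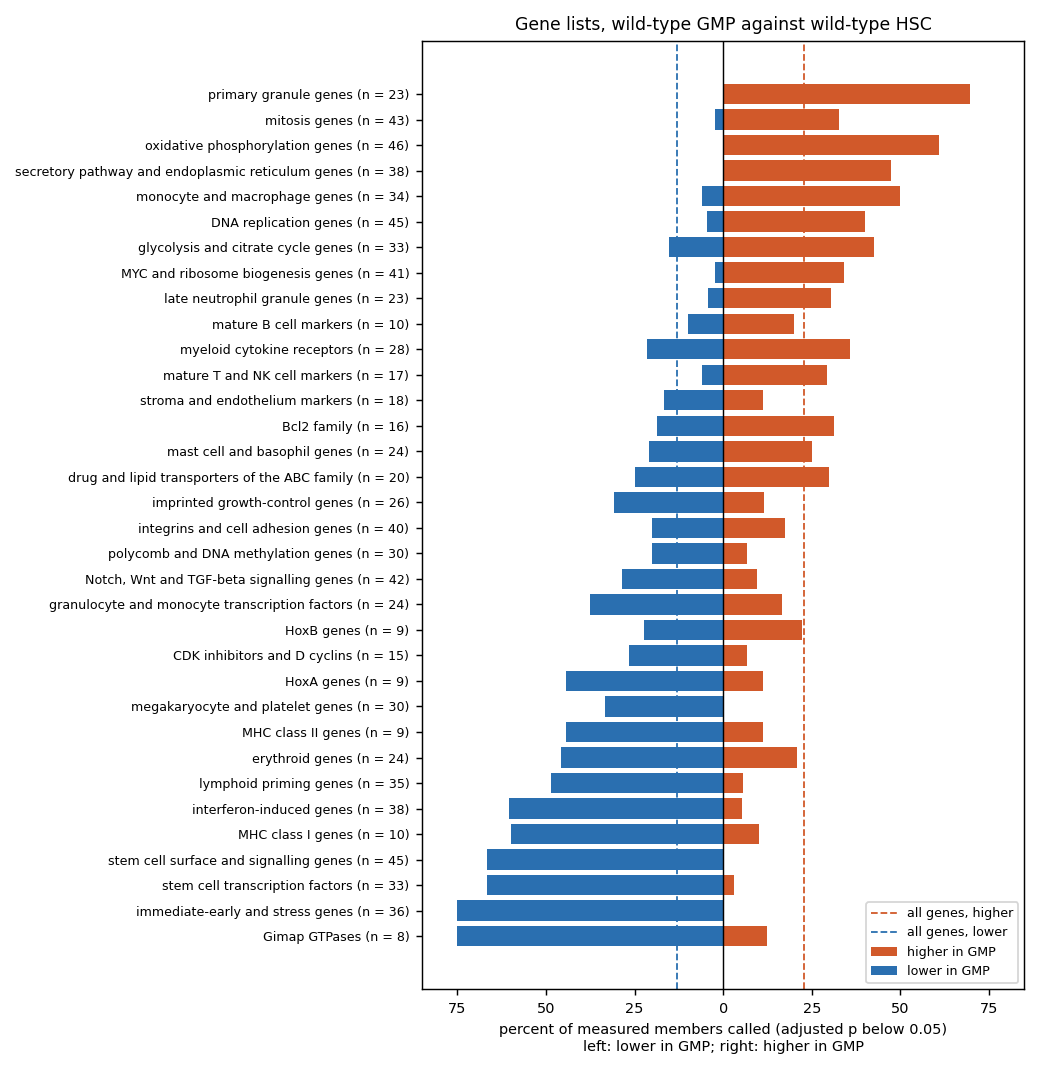
Percent of each gene list's measured members (n beside its name) called higher in GMP (right, orange) or lower in GMP (left, blue), lists ordered by their median difference; dashed lines give the percent over all genes, 22.8 and 13. Primary granule, oxidative phosphorylation and monocyte genes lie furthest to the right of the dashed line, and immediate-early, Gimap and stem cell genes furthest to the left.

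The labelled populations were first set against the surface markers commonly used to sort them, as a description without a test because the sort may have used them. Markers that also belong to another list below are still counted there. Fcgr3, the low-affinity Fc receptor that marks GMP, lay at 9.46, 9.58, 9.001, 9.06 and 9.16 in GMP replicates 1 to 5 and at 4.29, 5.49, 5.48, 4.82 and 6.17 in HSC replicates 1 to 5. Every GMP sample was above every HSC sample by at least 2 log2 units. Cd34, a progenitor sialomucin, lay at 7.92, 9.21, 8.92, 8.74 and 8.72 in GMP replicates 1 to 5 and at 9.27, 9.13, 10.18, 9.97 and 10.74 in HSC replicates 1 to 5. Its groups overlapped. Procr, the endothelial protein C receptor and a stem cell marker, lay at 5.16, 5.25, 5.20, 5.11 and 5.18 in GMP replicates 1 to 5 and at 9.63, 9.03, 7.33, 8.51 and 8.30 in HSC replicates 1 to 5. GMP samples were all within a narrow band just above background and HSC samples were all far above it. Slamf1, the CD150 marker of long-term stem cells, lay between 3.49 and 4.25 in GMP and between 3.65 and 4.63 in HSC, below background in all 10 samples. Flt3, the receptor for FLT3 ligand found on multipotent and lymphoid-primed progenitors, lay at 7.54, 6.96, 6.99, 6.75 and 7.41 in GMP replicates 1 to 5 and at 10.22, 10.70, 9.29, 9.48 and 9.59 in HSC replicates 1 to 5. All HSC samples were above all GMP samples. Cd48, which long-term stem cells lack, lay at 8.999, 9.11, 8.98, 8.82 and 8.95 in GMP replicates 1 to 5 and at 5.35, 7.92, 7.65, 6.85 and 9.04 in HSC replicates 1 to 5. HSC replicate 1 was close to background for Cd48 and HSC replicate 5 was as high as the GMP. Whether the sorted HSC held multipotent progenitors was not tested.

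Genes of the primary (azurophil) granules were mostly higher in GMP. Of 23 measured members 16 were higher and the other 7 were not called, with a median difference of 1.29. Elane, neutrophil elastase, lay at 9.31, 11.65, 11.13, 11.58 and 11.59 in GMP replicates 1 to 5 and at 5.12, 5.45, 4.68, 4.53 and 6.005 in HSC replicates 1 to 5. All 5 GMP were far above all 5 HSC, with GMP replicate 1 the lowest GMP, and the difference was 5.90 ± 0.41 (SE, adjusted p = 1.2e-07). Ms4a3, a membrane protein of the GMP stage, lay at 11.90, 12.18, 12.30, 12.63 and 12.62 in GMP replicates 1 to 5 and at 5.85, 6.52, 6.08, 6.22 and 8.13 in HSC replicates 1 to 5. Its HSC level was highest in replicate 5, the groups stayed apart, and the difference was 5.76 ± 0.35 (SE, adjusted p = 3.4e-08).

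Myeloperoxidase (Mpo) lay at 13.57, 13.79, 13.58, 13.87 and 13.69 in GMP replicates 1 to 5 and at 10.23, 11.75, 11.82, 10.86 and 12.89 in HSC replicates 1 to 5. GMP samples were almost level with each other while HSC samples spread over more than 2 log2 units, all of them well above background, and the difference was 2.19 ± 0.34 (SE, adjusted p = 0.00019). Prtn3, proteinase 3, lay at 12.25, 12.77, 12.86, 12.93 and 12.84 in GMP replicates 1 to 5 and at 10.11, 9.75, 9.77, 10.14 and 10.92 in HSC replicates 1 to 5, a difference of 2.59 ± 0.21 (SE, adjusted p = 4.1e-07). Ctsg, cathepsin G, lay at 13.39, 13.17, 13.06, 13.23 and 13.16 in GMP replicates 1 to 5 and at 8.77, 10.27, 9.22, 8.83 and 11.98 in HSC replicates 1 to 5, a difference of 3.39 ± 0.45 (SE, adjusted p = 4.4e-05). For the proteases the groups did not overlap, and HSC replicate 5 was the highest HSC for each. Haptoglobin (Hp) differed by 4.81 ± 0.40 (SE, adjusted p = 4.9e-07), the granule cysteine protease inhibitor Cst7 by 3.59 ± 0.35 (SE, adjusted p = 2.3e-06), the immunoglobulin superfamily receptor Igsf6 by 4.52 ± 0.31 (SE, adjusted p = 1.2e-07, at least 15.7-fold) and Nkg7, a granule membrane protein of cytotoxic and myeloid cells, by 2.91 ± 0.28 (SE, adjusted p = 1.8e-06). Srgn, the proteoglycan that packs granule proteins, was bright in both groups and was not called, with a difference of 0.25 ± 0.13 (SE, adjusted p = 0.14). Lyz1, a lysozyme, was not called either, at 0.32 ± 0.22 (SE, adjusted p = 0.27). Srgn was called without HSC replicate 1, at 0.35 with an adjusted p of 0.027, and Lyz1 without GMP replicate 3, at 0.54 with an adjusted p of 0.023.

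The sequences upstream of 4 of these protease and peroxidase genes and of Hlf, the stem cell gene with the largest difference among its list, are shown because the former were higher in GMP together and the latter was lower. Each is the 250 bases before the annotated start in the GRCm38.p6 RefSeq annotation, written 5' to 3' on the gene's strand. Capitals mark matches on either strand to 4 motifs, C/EBP (TTGCNNAA), PU.1 (GAGGAA), MYB (AACNG) and RUNX (TGNGGT). Elane lies at chr10:79886062-79886311 on the plus strand, Prtn3 at chr10:79879417-79879666 on the plus strand, Mpo at chr11:87793534-87793783 on the plus strand, Ctsg at chr14:56102575-56102824 on the minus strand and Hlf at chr11:90390918-90391167 on the minus strand.
Elane: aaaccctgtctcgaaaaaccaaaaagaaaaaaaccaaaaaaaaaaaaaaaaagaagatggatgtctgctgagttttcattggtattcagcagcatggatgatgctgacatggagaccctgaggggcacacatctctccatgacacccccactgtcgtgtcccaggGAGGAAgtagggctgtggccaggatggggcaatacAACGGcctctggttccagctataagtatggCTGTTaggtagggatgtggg
Prtn3: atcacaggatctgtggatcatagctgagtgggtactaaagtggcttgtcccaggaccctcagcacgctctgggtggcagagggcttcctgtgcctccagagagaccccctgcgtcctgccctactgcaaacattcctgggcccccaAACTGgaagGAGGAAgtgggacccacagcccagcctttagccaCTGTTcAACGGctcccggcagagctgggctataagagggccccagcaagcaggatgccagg
Mpo: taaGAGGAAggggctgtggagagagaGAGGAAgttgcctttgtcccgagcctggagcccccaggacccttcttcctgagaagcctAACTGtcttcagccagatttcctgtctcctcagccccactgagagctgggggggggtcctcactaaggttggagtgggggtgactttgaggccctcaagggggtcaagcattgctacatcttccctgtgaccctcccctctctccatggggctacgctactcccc
Ctsg: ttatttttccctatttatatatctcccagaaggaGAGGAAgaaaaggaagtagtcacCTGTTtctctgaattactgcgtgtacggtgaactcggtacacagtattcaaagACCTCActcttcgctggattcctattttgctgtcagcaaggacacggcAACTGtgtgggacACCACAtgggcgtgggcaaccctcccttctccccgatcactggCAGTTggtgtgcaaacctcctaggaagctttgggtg
Hlf: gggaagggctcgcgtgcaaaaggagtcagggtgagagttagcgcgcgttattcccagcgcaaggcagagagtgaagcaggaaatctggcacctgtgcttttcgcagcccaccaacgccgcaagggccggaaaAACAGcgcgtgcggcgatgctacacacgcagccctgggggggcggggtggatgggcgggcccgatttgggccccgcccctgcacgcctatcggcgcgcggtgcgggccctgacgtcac

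The PU.1 hexamer occurred at least once in the windows of Elane, Prtn3, Mpo and Ctsg and was not in the Hlf window. Of 32851 windows of the same length in RefSeq a share of 23.3% held it. It began 85 bases before the start in Elane and 95 bases before it in Prtn3, a neighbouring gene on the same chromosome, and 247 and 224 bases before it in Mpo. The MYB pentamer occurred in all 5 windows, and 74.2% of all windows held it. Both matches to the RUNX motif were in Ctsg, against 40.1% of all windows with at least 1, and the C/EBP octamer was in none of the 5, against 9.56% of all. No match overlapped another. A match is a description of letters and not a binding site.

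Genes of the later, secondary and tertiary, neutrophil granules were mostly not called, as were most of all genes, of which 35.8% were called. Of 23 measured members 7 were higher, 30.4% against 22.8% over all genes, and 1 was lower, 4.35% against 13%. The other 15 were not called, and the median was 0.30. S100a8, a calcium-binding protein of neutrophils, lay at 10.27, 10.81, 10.36, 10.42 and 10.44 in GMP replicates 1 to 5 and at 7.83, 7.67, 7.17, 10.59 and 7.46 in HSC replicates 1 to 5. HSC replicate 4 was as high as the GMP and the other 4 HSC were far lower, with a difference of 2.31 ± 0.48 (SE, adjusted p = 0.0017). Ngp, a neutrophil granule protein, lay at 8.68, 8.90, 6.93, 6.03 and 8.22 in GMP replicates 1 to 5 and at 7.27, 7.47, 7.85, 10.53 and 7.51 in HSC replicates 1 to 5. It was highest in HSC replicate 4 and was not called, with a difference of −0.37 ± 0.62 (SE, adjusted p = 0.67). Chil3, a chitinase-like lectin, was higher at 1.98 ± 0.70 (SE, adjusted p = 0.038) but lost its call in 11 of 22 alternative settings. Wfdc21 differed by 2.40 ± 0.41 (SE, adjusted p = 0.00042), the leukotriene B4 receptor Ltb4r1 by 1.79 ± 0.25 (SE, adjusted p = 6.6e-05) and Mcemp1 by 1.5 ± 0.29 (SE, adjusted p = 0.001). Padi4, which citrullinates histones in neutrophils, was the lower member at −1.26 ± 0.26 (SE, adjusted p = 0.0016). Ncf1, a subunit of the phagocyte oxidase, was not called on its brightest probe set, at −0.01 ± 0.21 (SE, adjusted p = 0.97), while its other probe sets differed by 2.55 and 1.78. The part of late neutrophil transcripts in HSC replicate 4 in these values was not tested.

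The transcription factors of the granulocyte and monocyte fates went both ways. Of 24 measured members 4 were higher, 16.7% against 22.8% over all genes, and 9 lower, 37.5% against 13%. The other 11 were not called, and the median was −0.17. Egr2, Nr4a1 and Klf4, all lower, are also members of the immediate-early list below. Cebpa, which encodes C/EBPalpha, lay at 8.18, 8.57, 9.20, 9.10 and 9.31 in GMP replicates 1 to 5 and at 5.82, 5.68, 5.29, 6.12 and 6.71 in HSC replicates 1 to 5. Every GMP was above every HSC and the difference was 2.95 ± 0.29 (SE, adjusted p = 2.3e-06). Irf8, which directs monocyte and dendritic fates, lay at 11.17, 10.47, 9.77, 9.92 and 10.45 in GMP replicates 1 to 5 and at 7.33, 6.92, 7.82, 7.53 and 9.66 in HSC replicates 1 to 5. HSC replicate 5 came close to the lowest GMP, and the difference was 2.50 ± 0.42 (SE, adjusted p = 0.00032). Cebpd differed by 2.81 ± 0.32 (SE, adjusted p = 9.2e-06) and Nfil3 by 2.09 ± 0.25 (SE, adjusted p = 1.9e-05, at least 3.47-fold).

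Spi1, which encodes PU.1, lay at 5.68, 6.81, 6.92, 7.37 and 7.44 in GMP replicates 1 to 5 and at 7.33, 7.14, 6.93, 6.80 and 7.29 in HSC replicates 1 to 5. The groups overlapped throughout, and the difference of −0.25 ± 0.29 (SE, adjusted p = 0.53) was not called. Gfi1, a repressor needed for neutrophil formation, lay at 6.70, 7.78, 7.52, 7.43 and 7.36 in GMP replicates 1 to 5 and at 7.36, 6.27, 6.34, 6.41 and 7.30 in HSC replicates 1 to 5, and its difference of 0.62 ± 0.28 (SE, adjusted p = 0.093) was not called. It passed in 5 of 22 alternative settings. Among the lower members, Egr2 differed by −3.40 ± 0.56 (SE, adjusted p = 0.00028, at least 8.07-fold) and Id2 by −1.59 ± 0.35 (SE, adjusted p = 0.0028). Zeb2 was lower at −2.42 ± 0.26 (SE, adjusted p = 5e-06) on its brightest probe set, but 2 dimmer probe sets were higher in GMP by 1.25 and 1.41, so its direction depended on the probe set. Nfe2 was not called at −0.09 ± 0.22 (SE, adjusted p = 0.79). Myb was slightly lower, at −0.44 ± 0.14 (SE, adjusted p = 0.02).

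Monocyte and macrophage genes were higher in GMP for 17 of 34 measured members, 50% against 22.8% over all genes. In GMP 2 were lower, 5.88% against 13%, and 15 were not called, with a median of 0.63. Csf1r, the receptor for macrophage colony-stimulating factor, lay at 12.78, 11.18, 10.91, 11.69 and 11.53 in GMP replicates 1 to 5 and at 7.74, 8.49, 8.46, 7.88 and 10.35 in HSC replicates 1 to 5. HSC replicate 5 lay between the other HSC and the lowest GMP, and the difference was 3.04 ± 0.43 (SE, adjusted p = 8e-05). F13a1, coagulation factor XIII A of monocytes and platelets, lay at 10.61, 10.31, 10.40, 10.21 and 10.44 in GMP replicates 1 to 5 and at 5.64, 5.90, 5.55, 5.24 and 8.02 in HSC replicates 1 to 5, with a difference of 4.32 ± 0.40 (SE, adjusted p = 1.5e-06). All GMP were above 10 and all HSC but replicate 5 were below 6. Ly86, the MD-1 partner of a Toll-like receptor homologue, differed by 3.86 ± 0.57 (SE, adjusted p = 0.00012), the beta-glucan receptor Clec7a by 3.15 ± 0.32 (SE, adjusted p = 3.4e-06) and the protease inhibitor Slpi by 3.04 ± 0.22 (SE, adjusted p = 1.9e-07). Ctss, cathepsin S, was not called at −0.35 ± 0.23 (SE, adjusted p = 0.25). Klf4 was lower at −1.53 ± 0.58 (SE, adjusted p = 0.049), with HSC replicates 1 to 4 at 9.36 to 11.06 and HSC replicate 5 at 6.62, below the GMP, and it lost its call in 14 of 22 alternative settings. Without HSC replicate 5 the list counts were 20 higher and 2 lower, and leaving out GMP replicate 1, 2 or 3 or HSC replicate 2, 3 or 4 left 1 lower.

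Receptors for myeloid growth factors went both ways. Of 28 measured members 10 were higher, 35.7% against 22.8% over all genes, and 6 lower, 21.4% against 13%. The other 12 were not called, and the median was 0.17. Flt3, a sorting marker, was among the 6 lower. Csf2rb, the beta chain shared by the receptors for GM-CSF, interleukin 3 and interleukin 5, lay at 10.02, 9.31, 9.66, 9.20 and 9.43 in GMP replicates 1 to 5 and at 7.40, 7.56, 6.96, 7.15 and 8.04 in HSC replicates 1 to 5. Every GMP was above every HSC, a difference of 2.10 ± 0.24 (SE, adjusted p = 9.4e-06). The alpha chains of the GM-CSF and interleukin 3 receptors were higher too, Csf2ra by 1.67 ± 0.20 (SE, adjusted p = 1.8e-05) and Il3ra by 1.04 ± 0.19 (SE, adjusted p = 0.00078, at least 1.38-fold). Csf3r, the receptor for G-CSF, lay at 8.32, 8.38, 7.97, 7.84 and 7.81 in GMP replicates 1 to 5 and at 8.30, 7.31, 7.78, 8.42 and 8.28 in HSC replicates 1 to 5, and its difference of 0.05 ± 0.24 (SE, adjusted p = 0.9) was not called.

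Lower in GMP were the interleukin 1 receptor Il1r1 at −3.11 ± 0.26 (SE, adjusted p = 5.3e-07), Tgfbr2 of the TGF-beta receptor at −1.90 ± 0.19 (SE, adjusted p = 2.3e-06), the type I interferon receptor chain Ifnar1 at −1.66 ± 0.27 (SE, adjusted p = 0.00024) and the interleukin 18 receptor Il18r1 at −1.79 ± 0.35 (SE, adjusted p = 0.0011, at least 2.19-fold). Kit, the stem cell factor receptor, lay at 6.33, 8.38, 8.14, 8.17 and 8.18 in GMP replicates 1 to 5 and at 8.48, 8.24, 8.55, 8.72 and 8.71 in HSC replicates 1 to 5. GMP replicate 1 was far below the other 4 GMP, whose values overlapped those of the HSC. As a marker commonly used to sort these cells, it is described without a test.

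**Figure D2:**
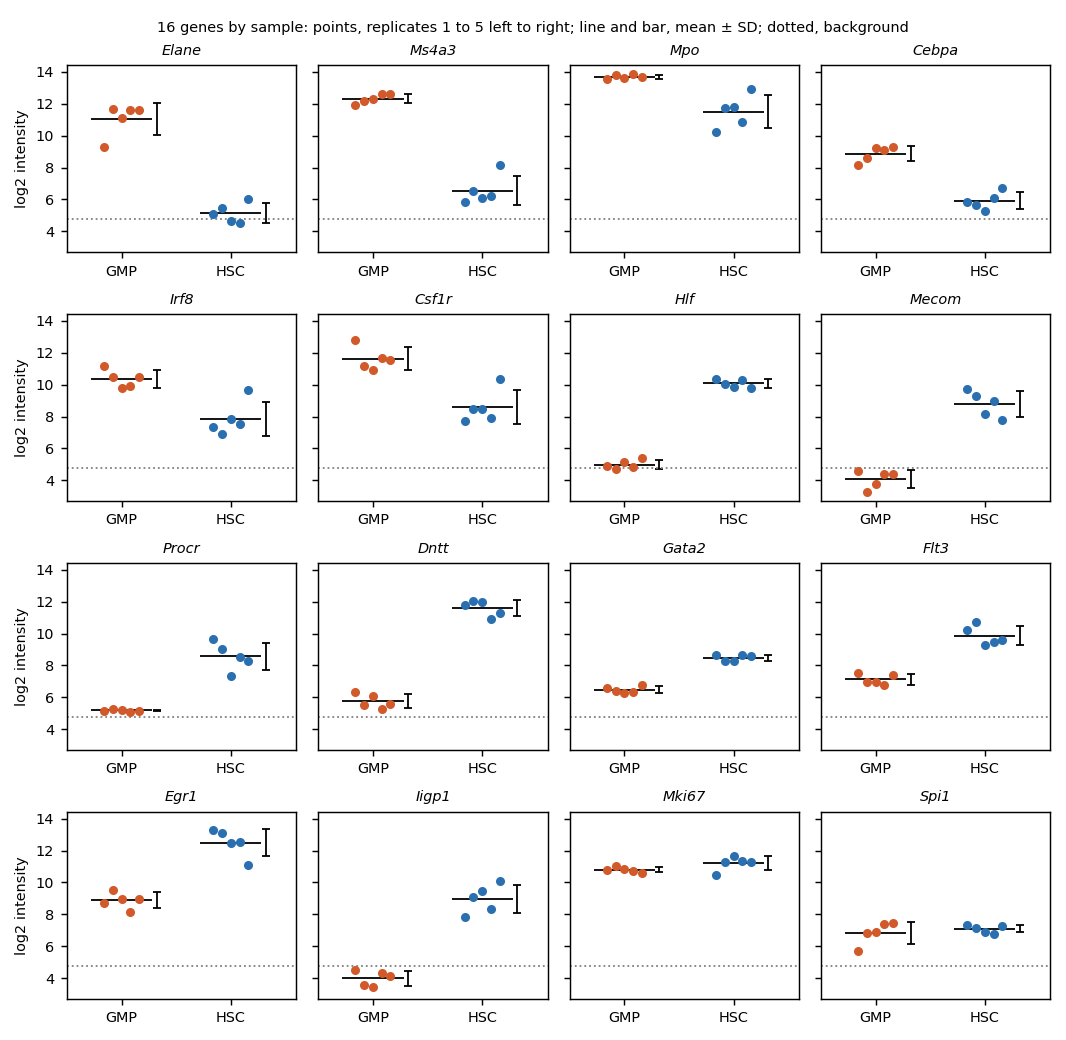
Log2 intensity of 16 genes in each of the 5 GMP (orange) and 5 HSC (blue) samples, with the mean and SD of each group and the background level as a dotted line. Groups are apart for the genes of the upper 3 rows and for Egr1 and Iigp1, and overlap for Mki67 and Spi1.

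Stem cell transcription factors were lower in GMP. Of 33 measured members 22 were lower, 1 was higher and 10 were not called, with a median of −1.34. Without HSC replicate 3, 2 were higher. Hlf, a PAR bZIP factor of stem cells, lay at 4.90, 4.69, 5.15, 4.81 and 5.38 in GMP replicates 1 to 5 and at 10.37, 10.06, 9.82, 10.31 and 9.80 in HSC replicates 1 to 5. GMP lay near background and HSC close to 10, a difference of −5.09 ± 0.21 (SE, adjusted p = 1.2e-09), and its other probe set differed by −4.62. Mecom, which encodes EVI1, lay at 4.61, 3.25, 3.76, 4.42 and 4.39 in GMP replicates 1 to 5 and at 9.69, 9.27, 8.18, 8.98 and 7.76 in HSC replicates 1 to 5. All GMP were below background, with a difference of −4.69 ± 0.36 (SE, adjusted p = 2.5e-07, at least 16.01-fold). Meis1, a partner of HOX proteins, lay at 6.84, 6.65, 6.44, 6.83 and 6.55 in GMP replicates 1 to 5 and at 9.85, 9.18, 10.10, 10.34 and 9.59 in HSC replicates 1 to 5, a difference of −3.15 ± 0.23 (SE, adjusted p = 1.8e-07), and all 3 of its probe sets were lower.

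Prdm16 differed by −3.28 ± 0.26 (SE, adjusted p = 3.8e-07, at least 5.18-fold) on its brightest probe set, while a dimmer one was higher by 0.54. Mycn differed by −3.96 ± 0.23 (SE, adjusted p = 2.4e-08, at least 9.96-fold), again with a dimmer probe set higher by 0.51. Gata2, needed for stem cell maintenance, lay at 6.61, 6.39, 6.28, 6.36 and 6.80 in GMP replicates 1 to 5 and at 8.66, 8.29, 8.30, 8.63 and 8.57 in HSC replicates 1 to 5. The groups did not overlap, and the difference was −2.0 ± 0.19 (SE, adjusted p = 2.2e-06). On its other probe set Gata2 differed by −0.35 and was not called. Lyl1 was the member that was higher, by 0.70 ± 0.18 (SE, adjusted p = 0.007). Runx1 was not called on its brightest probe set, at 0.01 ± 0.31 (SE, adjusted p = 0.99), but 2 others were lower at −2.95 and −1.43, so its probe sets did not give 1 direction. Hoxa9 lay at 8.16, 9.26, 9.49, 8.96 and 9.20 in GMP replicates 1 to 5 and at 12.57, 12.53, 12.13, 12.08 and 11.52 in HSC replicates 1 to 5, a difference of −3.15 ± 0.25 (SE, adjusted p = 3.7e-07), and its other probe set differed by −0.34 and was not called. Of the 9 HoxA genes measured 4 were lower, 44.4% against 13% over all genes, and 1 higher, 11.1% against 22.8%. Above background in a group were 4 of the 9. Hoxa5 was not called on its brightest probe set, at −0.30 ± 0.28 (SE, adjusted p = 0.41), and was lower at −2.71 on the other. Of 9 HoxB genes 2 were lower, 22.2% against 13% over all genes, and 2 higher, 22.2% against 22.8%. Only 2 of the 9 HoxB genes lay above background in a group. Both higher ones lost their call when arrays were centred on their median. Without GMP replicate 2 or 3 or HSC replicate 2 or 3, 1 was higher, and without any 1 of the GMP replicates or HSC replicate 1 or 4, 1 was lower.

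Stem cell surface and signalling genes were lower for 30 of 45 measured members, with the other 15 not called and a median of −1.29. The sorting markers Procr, Flt3 and Cd34 were among the 30 lower, so this count may rest partly on the sort. Without HSC replicate 1, 1 was higher. Tgm2, transglutaminase 2, lay at 4.70, 3.59, 3.63, 4.20 and 4.005 in GMP replicates 1 to 5 and at 9.70, 8.85, 9.47, 10.002 and 8.26 in HSC replicates 1 to 5. GMP were all below background, a difference of −5.23 ± 0.32 (SE, adjusted p = 3.4e-08, at least 22.3-fold). The largest differences after it were those of the guanine exchange factor Fgd5, at −3.90 ± 0.25 (SE, adjusted p = 5.2e-08, at least 4.65-fold), the Tie2 ligand Angpt1, at −3.83 ± 0.21 (SE, adjusted p = 2e-08), and Txnip, which restrains glucose uptake, at −3.50 ± 0.24 (SE, adjusted p = 9.9e-08). Mmrn1, multimerin 1 of platelets and endothelium, differed by −3.46 ± 0.24 (SE, adjusted p = 1.1e-07, at least 6.76-fold). Tek, the Tie2 receptor, lay at 3.64, 3.59, 3.22, 3.45 and 3.39 in GMP replicates 1 to 5 and at 4.09, 4.83, 4.70, 5.57 and 5.73 in HSC replicates 1 to 5. HSC values straddled the background level, so the difference of −1.52 ± 0.25 (SE, adjusted p = 0.00032, at least 1.16-fold) rests on dim values. Vwf, von Willebrand factor, was lower at −1.04 ± 0.28 (SE, adjusted p = 0.0088), with GMP replicate 1 inside the HSC range.

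Lymphoid priming genes were lower in GMP or not called, with few exceptions. Of 35 measured members 17 were lower, 48.6% against 13% over all genes, and 2 higher, 5.71% against 22.8%. The other 16 were not called, and the median was −0.55. The sorting markers Flt3 and Il7r were among the 17 lower. So were the immunoglobulin genes Jchain and Ighm, given in the next paragraph. Dntt, the terminal transferase of early lymphoid progenitors, lay at 6.36, 5.51, 6.11, 5.28 and 5.56 in GMP replicates 1 to 5 and at 11.81, 12.02, 11.96, 10.90 and 11.29 in HSC replicates 1 to 5. Every HSC was above 10 and every GMP below 7, a difference of −5.83 ± 0.27 (SE, adjusted p = 3.6e-09), and all 3 probe sets were lower. Notch1 differed by −2.33 ± 0.19 (SE, adjusted p = 5.4e-07), lymphotoxin beta (Ltb) by −3.95 ± 0.27 (SE, adjusted p = 1e-07, at least 7.4-fold) and the transcriptional regulator Mn1 by −2.93 ± 0.27 (SE, adjusted p = 1.6e-06, at least 4.45-fold). On its other probe set, also above background, Notch1 differed by 0.03 and was not called. Il7r, the interleukin 7 receptor, lay between 4.69 and 5.52 in HSC, around background, and below background in all GMP.

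Immunoglobulin transcripts were among the largest differences. Jchain, which joins IgM and IgA polymers, lay at 5.44, 3.14, 3.44, 3.69 and 3.56 in GMP replicates 1 to 5 and at 10.77, 11.28, 12.36, 12.35 and 7.91 in HSC replicates 1 to 5. HSC replicate 5 was lower than the other 4 HSC by nearly 3 log2 units or more, and the difference was −7.08 ± 0.68 (SE, adjusted p = 2e-06, at least 65.3-fold). Ighm, the IgM heavy chain, lay at 11.15, 10.51, 9.98, 10.26 and 10.26 in GMP replicates 1 to 5 and at 14.004, 14.21, 14.24, 14.25 and 12.50 in HSC replicates 1 to 5, a difference of −3.41 ± 0.30 (SE, adjusted p = 8.7e-07). Igha, the IgA heavy chain, lay at 5.49, 5.64, 4.81, 5.45 and 5.58 in GMP replicates 1 to 5 and at 10.92, 4.74, 11.52, 11.84 and 8.67 in HSC replicates 1 to 5. HSC replicate 2 was just below the lowest GMP while 3 other HSC were above 10, so the HSC samples did not share 1 level, and the difference was −4.14 ± 0.97 (SE, adjusted p = 0.0041). The kappa variable gene Igkv8-30 differed by −4.82 ± 0.57 (SE, adjusted p = 1.5e-05).

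Markers of mature B cells were mostly below background. Of 10 measured members 2 lay above background in a group. In GMP 2 were higher, 20% against 22.8% over all genes, and 1 was lower, 10% against 13%. The mean over the list was 4.13 to 4.38 in GMP and 3.96 to 4.20 in HSC. The higher count was 1 without GMP replicate 1, GMP replicate 5 or HSC replicate 5, as after centring or quantile normalisation. Cd79b, a chain of the B cell receptor, was higher in GMP by 0.85 ± 0.20 (SE, adjusted p = 0.0041), and Cd74, the MHC class II chaperone, was lower at −0.62 ± 0.21 (SE, adjusted p = 0.035), but lost its call in 7 of 22 alternative settings, which left 0 lower without GMP replicate 2, 3 or 4 or HSC replicate 2, 3 or 4. Genes of antibody-secreting cells were looked at after these values were seen. Sdc1, the plasma cell marker syndecan 1, lay at 6.43 to 7.81 in HSC and 3.05 to 4.56 in GMP on its brightest probe set, Mzb1 at 4.90 to 6.63 in HSC and 3.94 to 4.65 in GMP, and Tnfrsf17 below background in all 10 samples. The part of antibody-secreting cells in the immunoglobulin values was not tested.

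Of 17 measured mature T and NK cell markers 5 were higher in GMP, 29.4% against 22.8% over all genes, and 1 was lower, 5.88% against 13%. The list means were 4.46 to 4.72 in GMP and 4.11 to 4.50 in HSC, below background. Nkg7, given above with the granule genes, had the largest difference among the higher, and Cd3e, a chain of the T cell receptor complex, was another at 0.77 ± 0.17 (SE, adjusted p = 0.0025, at least 1.33-fold), with HSC below background. There were 2 lower members without GMP replicate 1, HSC replicate 3 or HSC replicate 4. Of 18 stroma and endothelium markers 2 were higher, 11.1% against 22.8% over all genes, and 3 lower, 16.7% against 13%. Without GMP replicate 3, 4 of these markers were higher. Col4a1, a basement membrane collagen, had the largest difference of them at −3.30 ± 0.25 (SE, adjusted p = 2.9e-07, at least 8.49-fold), while the list means overlapped, 4.33 to 4.49 in GMP and 4.24 to 4.64 in HSC.

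Erythroid genes were lower in GMP for 11 of 24 measured members, 45.8% against 13% over all genes. In GMP 5 were higher, 20.8% against 22.8%, and 8 were not called, with a median of −0.50. Without GMP replicate 3 or GMP replicate 4, 3 were higher, as after centring or quantile normalisation. Car1, carbonic anhydrase 1 of red cells, lay at 5.74, 6.03, 5.25, 4.47 and 6.07 in GMP replicates 1 to 5 and at 8.18, 9.52, 9.38, 9.59 and 8.16 in HSC replicates 1 to 5. All HSC were above 8 and all GMP near 6 or below, a difference of −3.46 ± 0.36 (SE, adjusted p = 4.4e-06). Car2 differed by −3.38 ± 0.27 (SE, adjusted p = 4.1e-07), Hemgn by −3.58 ± 0.27 (SE, adjusted p = 2.8e-07) and Ermap by −2.78 ± 0.28 (SE, adjusted p = 2.8e-06). The erythroid factors were lower too, Klf1 at −1.94 ± 0.33 (SE, adjusted p = 0.00041) and Gata1 at −1.59 ± 0.25 (SE, adjusted p = 0.0002). Tfrc, the transferrin receptor that cycling cells also use, was higher at 1.34 ± 0.41 (SE, adjusted p = 0.019), with GMP replicate 1 at 7.84 against 9.89 to 10.98 in the other GMP, and it lost its call without GMP replicate 3, at 1.04 with an adjusted p of 0.051.

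Of 30 measured megakaryocyte and platelet genes 10 were lower and the other 20 were not called, with a median of −0.43. The thrombin receptor F2r differed by −2.54 ± 0.25 (SE, adjusted p = 2.1e-06), the monoamine transporter Slc18a2 by −3.19 ± 0.18 (SE, adjusted p = 2e-08, at least 1.93-fold) and the myosin kinase Mylk by −1.89 ± 0.21 (SE, adjusted p = 9e-06). HSC replicate 5 had the highest mean of this list, 7.03 against 6.04 to 6.26 in the other HSC, and without it 3 members were higher and 10 lower, while without GMP replicate 1, 2 were higher. Of 24 mast cell and basophil genes 6 were higher, 25% against 22.8% over all genes, and 5 lower, 20.8% against 13%, with a median of 0.08. Histidine decarboxylase (Hdc) lay at 9.14, 9.70, 9.52, 9.80 and 9.76 in GMP replicates 1 to 5 and at 6.22, 6.40, 6.41, 5.69 and 7.32 in HSC replicates 1 to 5. All GMP were above 9 and all HSC below 7.5, a difference of 3.18 ± 0.27 (SE, adjusted p = 6.2e-07). The eosinophil granule genes Epx and Prg3 were higher by 1.73 ± 0.18 (SE, adjusted p = 4.2e-06, at least 1.34-fold) and 1.35 ± 0.29 (SE, adjusted p = 0.0024, at least 1.53-fold). Ms4a2, the beta chain of the IgE receptor, was lower at −1.29 ± 0.37 (SE, adjusted p = 0.013). Mcpt8, a basophil protease, lay at 8.72, 7.81, 7.92, 8.48 and 8.45 in GMP replicates 1 to 5 and at 7.68, 11.01, 7.99, 6.40 and 9.02 in HSC replicates 1 to 5. HSC replicate 2 was the highest of the 10 samples and the difference of −0.15 ± 0.59 (SE, adjusted p = 0.87) was not called. Cpa3, mast cell carboxypeptidase, was not called at 1.03 ± 0.52 (SE, adjusted p = 0.13), but was without HSC replicate 2, at 1.46 with an adjusted p of 0.022.

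Cell cycle genes differed less evenly, and the HSC samples were spread widely. Of 43 mitosis genes 14 were higher, 32.6% against 22.8% over all genes, and 1 was lower, 2.33% against 13%. The other 28 were not called, and the median was 0.73. The list mean was 8.26 to 8.47 in GMP and 6.87, 7.60, 8.35, 7.53 and 8.32 in HSC replicates 1 to 5. HSC replicates 3 and 5 were at the GMP level and HSC replicate 1 was lowest. Without HSC replicate 5, 23 members were higher and 1 lower, and without HSC replicate 3, 22 were higher. Without HSC replicate 1, 3 were lower. Cdca3, a trigger of mitotic entry, differed by 1.96 ± 0.22 (SE, adjusted p = 1.1e-05), survivin (Birc5) by 1.79 ± 0.37 (SE, adjusted p = 0.0017) and Aurkb, a mitotic kinase, by 1.56 ± 0.39 (SE, adjusted p = 0.0061). Aurkb in HSC replicate 5 was just below the lowest GMP.

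Mki67, the Ki-67 proliferation antigen, lay at 10.80, 11.05, 10.87, 10.72 and 10.61 in GMP replicates 1 to 5 and at 10.47, 11.31, 11.69, 11.37 and 11.26 in HSC replicates 1 to 5. It was bright in all 10 samples, and its difference of −0.41 ± 0.20 (SE, adjusted p = 0.12) was not called. Without HSC replicate 1 it was called, at −0.60 with an adjusted p of 0.0062. Kif23, a kinesin of the cleavage furrow, was the lower member at −1.30 ± 0.21 (SE, adjusted p = 0.00027). Of 45 DNA replication genes 18 were higher, 40% against 22.8% over all genes, and 2 lower, 4.44% against 13%. The other 25 were not called, and the median was 0.61. Without HSC replicate 1, 4 were lower. Gins4 of the replicative helicase differed by 1.85 ± 0.29 (SE, adjusted p = 0.00017), E2f1 by 1.41 ± 0.32 (SE, adjusted p = 0.0028) and cyclin E1 (Ccne1) by 1.40 ± 0.25 (SE, adjusted p = 0.00058). Mcm5, a helicase subunit, was lower at −1.44 ± 0.22 (SE, adjusted p = 0.00016) on its brightest probe set, while its other probe sets differed by 0.61 and 0.89 and were not called. Mcm7 was not called at 0.04 ± 0.17 (SE, adjusted p = 0.86). Without GMP replicate 1 and HSC replicate 5 together, 29 replication genes were higher and 3 lower.

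Of 15 CDK inhibitors, D cyclins and their partners 4 were lower, 26.7% against 13% over all genes. In GMP 1 was higher, 6.67% against 22.8%, and 10 were not called. Without HSC replicate 1 or HSC replicate 5, 2 were higher. Cdkn1c, the p57 inhibitor of quiescent stem cells, lay at 3.81, 3.94, 3.53, 3.96 and 3.62 in GMP replicates 1 to 5 and at 5.79, 6.84, 5.23, 6.10 and 5.60 in HSC replicates 1 to 5. All GMP were below background, a difference of −2.14 ± 0.25 (SE, adjusted p = 1.1e-05, at least 2.2-fold). Cdk6 was lower at −1.48 ± 0.16 (SE, adjusted p = 6.3e-06), with a bright probe set at −0.43, not called, and a dim one higher by 0.95. Cdk4 was higher by 1.15 ± 0.21 (SE, adjusted p = 0.00077) on 3 probe sets that all went the same way. Cyclin D2 (Ccnd2) was lower at −1.06 ± 0.20 (SE, adjusted p = 0.001) and the pocket protein Rbl2 by −1.39 ± 0.26 (SE, adjusted p = 0.00075). Other Ccnd2 probe sets were lower at −1.04 and −0.76, while those at −0.51, 0.32, 0.39 and 0.49 were not called. Cdkn1a was not called at −0.11 ± 0.45 (SE, adjusted p = 0.87).

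Many genes of energy metabolism were higher in GMP. Of 46 nuclear genes of oxidative phosphorylation 28 were higher and the other 18 were not called, with a median of 0.69. The list mean was 10.5 to 10.7 in GMP and 9.42 to 10.3 in HSC, and the groups did not overlap. Uqcrq of complex III differed by 2.31 ± 0.22 (SE, adjusted p = 2.2e-06), and Ndufa5 and Ndufb8 of complex I by 1.82 ± 0.18 (SE, adjusted p = 3.1e-06) and 1.72 ± 0.17 (SE, adjusted p = 2e-06). Of 33 glycolysis and citrate cycle genes 14 were higher, 42.4% against 22.8% over all genes, and 5 lower, 15.2% against 13%. The other 14 were not called, and the median was 0.45. Isoforms went different ways. Hk3, the hexokinase of myeloid cells, was higher by 2.43 ± 0.27 (SE, adjusted p = 6.8e-06) and Hk2 lower at −1.16 ± 0.25 (SE, adjusted p = 0.0022). The cytosolic isocitrate dehydrogenase Idh1, phosphofructokinase Pfkp and phosphoglycerate mutase Pgam1 were higher by 2.18 ± 0.26 (SE, adjusted p = 1.6e-05), 1.64 ± 0.23 (SE, adjusted p = 6.2e-05) and 1.59 ± 0.24 (SE, adjusted p = 0.00013). Aldolase C (Aldoc) and the glucose transporter Slc2a3 were lower at −2.44 ± 0.24 (SE, adjusted p = 3e-06, at least 3.44-fold) and −1.60 ± 0.25 (SE, adjusted p = 0.00021).

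Genes of the secretory pathway and the endoplasmic reticulum were higher for 18 of 38 measured members, and the other 20 were not called, with a median of 0.63. Without HSC replicate 5, 1 was lower. The cargo receptor Tmed3 differed by 2.55 ± 0.24 (SE, adjusted p = 1.8e-06), and the chaperones Sdf2l1 and Hyou1 by 2.50 ± 0.33 (SE, adjusted p = 4.3e-05) and 1.96 ± 0.25 (SE, adjusted p = 2.8e-05). Hspa5, the BiP chaperone, lay at 9.998, 12.76, 13.01, 12.45 and 12.53 in GMP replicates 1 to 5 and at 12.58, 12.60, 12.09, 12.07 and 11.85 in HSC replicates 1 to 5. GMP replicate 1 was more than 2 log2 units below the other 4 GMP, and the difference of −0.09 ± 0.42 (SE, adjusted p = 0.89) was not called on all 10 samples. Without GMP replicate 1 it was 0.45 with an adjusted p of 0.049, and 25 members of the list were higher. Its dimmest probe set was higher by 1.32.

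Of 41 MYC and ribosome biogenesis genes 14 were higher in GMP, 34.1% against 22.8% over all genes. The stem cell factor Mycn was the 1 lower member, 2.44% against 13%, and 26 were not called, with a median of 0.44. The list means overlapped, 8.11 to 8.67 in GMP and 7.60 to 8.34 in HSC. Without GMP replicate 1 and HSC replicate 5 together 22 were higher and 2 lower, and without GMP replicate 1 alone 2 were lower. Cad, which starts pyrimidine synthesis, differed by 1.94 ± 0.24 (SE, adjusted p = 2.3e-05), the helicase Ddx21 by 1.73 ± 0.24 (SE, adjusted p = 6.9e-05) and spermidine synthase (Srm) by 1.53 ± 0.26 (SE, adjusted p = 0.00042). Other probe sets of Cad differed by 0.40 and 0.49 and that of Ddx21 by 0.08, none of them called. Wdr12, a factor of large subunit assembly, was higher by 1.85 ± 0.28 (SE, adjusted p = 0.00016), but another of its probe sets was lower at −0.79. Myc itself lay at 7.89, 8.59, 8.46, 8.16 and 8.33 in GMP replicates 1 to 5 and at 8.54, 8.34, 7.96, 8.35 and 9.03 in HSC replicates 1 to 5. The groups overlapped, and the difference of −0.16 ± 0.23 (SE, adjusted p = 0.62) was not called.

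Immediate-early and stress genes were lower in GMP. Of 36 measured members 27 were lower and the other 9 were not called, with a median of −1.79, and 1 was higher without GMP replicate 1. The list mean was 7.55 to 7.76 in GMP and 10.3, 9.77, 9.22, 9.46 and 8.10 in HSC replicates 1 to 5. GMP samples were level with each other, and the HSC samples spread over 2 log2 units with replicate 5 the lowest. Egr1, a zinc finger factor known for its role in stem cell quiescence, lay at 8.73, 9.54, 8.96, 8.15 and 8.99 in GMP replicates 1 to 5 and at 13.31, 13.09, 12.45, 12.51 and 11.11 in HSC replicates 1 to 5. The difference was −3.62 ± 0.35 (SE, adjusted p = 1.9e-06). Nr4a1, an orphan nuclear receptor, lay at 6.69, 6.45, 6.01, 6.29 and 6.48 in GMP replicates 1 to 5 and at 11.79, 10.79, 9.19, 10.40 and 6.96 in HSC replicates 1 to 5, a difference of −3.44 ± 0.63 (SE, adjusted p = 0.00065). Nr4a2 and Egr3 differed by −3.78 ± 0.70 (SE, adjusted p = 0.00073, at least 12.4-fold) and −4.06 ± 0.81 (SE, adjusted p = 0.0012, at least 9.02-fold). Egr3 lay at 4.29 in HSC replicate 5, inside the GMP range, against 7.35 to 10.18 in the other HSC. Mcl1, a survival protein with a short-lived transcript, was lower at −1.18 ± 0.26 (SE, adjusted p = 0.0024).

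**Figure D3:**
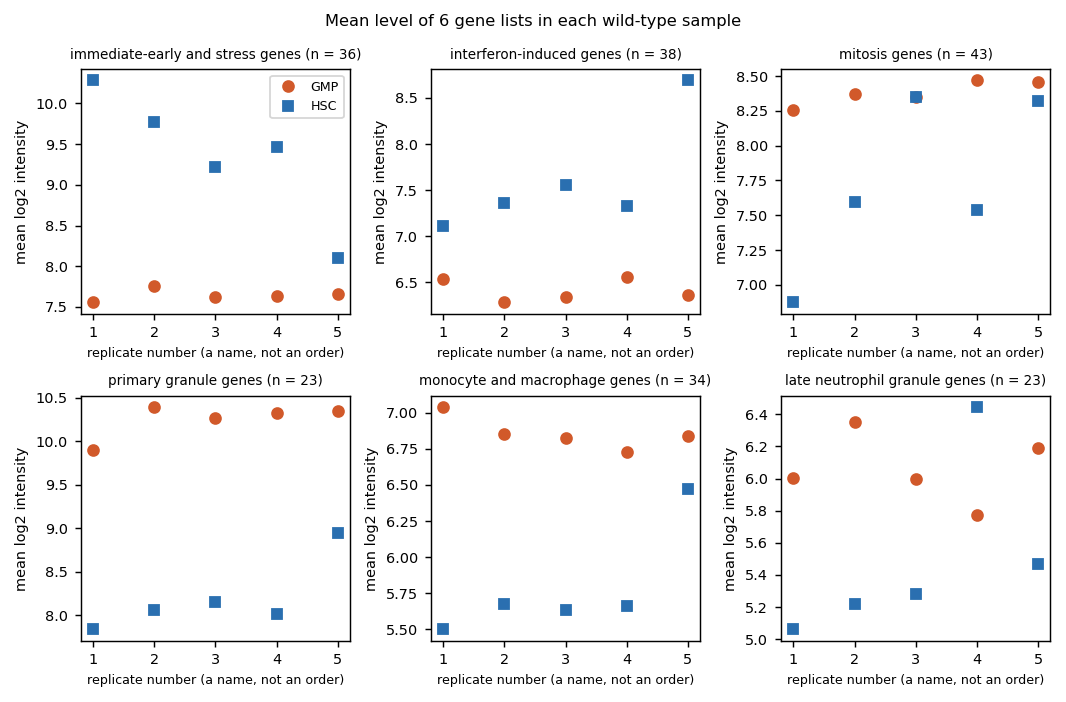
Mean log2 intensity of 6 gene lists in each wild-type GMP (orange circles) and HSC (blue squares) sample, by replicate number, each panel on its own axis. HSC replicate 5 is lowest of the HSC for immediate-early genes (8.10) and highest for interferon-induced (8.69), primary granule (8.94) and monocyte genes (6.47), and HSC replicate 4 is highest for late neutrophil genes (6.44).

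Interferon-induced genes were lower in GMP for 23 of 38 measured members, with 2 higher, 13 not called and a median of −1.03. Iigp1, an immunity-related GTPase, lay at 4.52, 3.57, 3.44, 4.32 and 4.11 in GMP replicates 1 to 5 and at 7.85, 9.08, 9.45, 8.31 and 10.12 in HSC replicates 1 to 5. All GMP were below background and all HSC were above 7.5, a difference of −4.97 ± 0.37 (SE, adjusted p = 2.1e-07, at least 18.2-fold). Rtp4 differed by −3.72 ± 0.32 (SE, adjusted p = 7.8e-07), viperin (Rsad2) by −3.26 ± 0.43 (SE, adjusted p = 3.9e-05), Oasl2 by −2.96 ± 0.42 (SE, adjusted p = 8.4e-05, at least 3.95-fold) and the guanylate-binding protein Gbp6 by −2.52 ± 0.29 (SE, adjusted p = 1.2e-05, at least 3.02-fold). Oasl2 was at 8.82 in HSC replicate 5 and at 5.79 to 6.56 in the other HSC. Ifitm2 and Gbp3 were the higher members, by 1.08 ± 0.21 (SE, adjusted p = 0.0012) and 1.14 ± 0.32 (SE, adjusted p = 0.011). Ifitm3, which blocks virus entry, was not called at −0.49 ± 0.27 (SE, adjusted p = 0.17). Without HSC replicate 5, the library with the highest list mean, 20 members were lower and 3 higher.

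Of 10 MHC class I genes 6 were lower and 1 was higher, with a median of −1.09. H2-K1 lay at 8.48, 10.56, 10.78, 10.26 and 10.52 in GMP replicates 1 to 5 and at 12.52, 12.38, 12.46, 12.28 and 12.88 in HSC replicates 1 to 5. All HSC were above 12 and all GMP below 11, with GMP replicate 1 lowest, a difference of −2.38 ± 0.33 (SE, adjusted p = 6.6e-05). H2-D1 differed by −1.79 ± 0.29 (SE, adjusted p = 0.00028), although near-identical class I genes can share its probes. The immunoproteasome subunit Psmb8 was the higher member, by 1.28 ± 0.27 (SE, adjusted p = 0.0018). Of 9 MHC class II genes 4 were lower, 44.4% against 13% over all genes, and 1 was higher, 11.1% against 22.8%. The higher call was lost without GMP replicate 1, 2, 4 or 5 or HSC replicate 1, 2 or 5, and after centring or quantile normalisation. Without GMP replicate 2, 3 or 4 or HSC replicate 2, 2 were lower. H2-Ob, an inhibitor of peptide loading, was lower at −3.28 ± 0.40 (SE, adjusted p = 1.9e-05), and H2-Aa was not called at −0.08 ± 0.37 (SE, adjusted p = 0.89). The Gimap GTPases, a cluster of lymphocyte survival genes, were lower for 6 of 8 members, with a median of −2.52. Gimap8 lay at 3.92, 3.17, 3.87, 3.62 and 3.94 in GMP replicates 1 to 5 and at 9.70, 9.77, 9.26, 9.57 and 8.22 in HSC replicates 1 to 5. GMP were all below background, a difference of −5.60 ± 0.28 (SE, adjusted p = 1.1e-08, at least 23.1-fold). Gimap6 and Gimap1 differed by −3.77 ± 0.25 (SE, adjusted p = 7.1e-08, at least 9.01-fold) and −2.97 ± 0.23 (SE, adjusted p = 2.9e-07, at least 5.87-fold). Gimap3 was the higher member, by 0.69 ± 0.16 (SE, adjusted p = 0.0041).

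Imprinted growth-control genes were lower in GMP for 8 of 26 measured members, 30.8% against 13% over all genes. They were higher for 3, 11.5% against 22.8%, each of the 3 losing its call when HSC replicate 5 was left out. The 3 also lost their call after centring or quantile normalisation. Above background in a group were 11 of the 26. Leaving out any 1 of the GMP replicates or HSC replicate 3 left 1 higher. Ppp1r9a differed by −3.72 ± 0.34 (SE, adjusted p = 1.5e-06) and its imprinted neighbour Sgce by −2.68 ± 0.23 (SE, adjusted p = 6.9e-07). Necdin (Ndn), a brake on stem cell division, was lower at −2.03 ± 0.31 (SE, adjusted p = 0.00015) on its brightest probe set and by −2.45 to −5.33 on 4 others, while a dim one was higher by 0.85. Meg3, a long non-coding RNA, lay at 5.68, 5.45, 5.48, 5.16 and 5.35 in GMP replicates 1 to 5 and at 10.52, 8.30, 6.30, 8.02 and 5.23 in HSC replicates 1 to 5. HSC replicate 5 was at the GMP level and HSC replicate 1 was highest, a difference of −2.25 ± 0.68 (SE, adjusted p = 0.018). Another Meg3 probe set was lower at −2.0. Those at −0.80 and −0.09 were not called, and the rest had group means below background and were not called.

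Of 30 polycomb and DNA methylation genes 6 were lower, 20% against 13% over all genes, and 2 higher, 6.67% against 22.8%. The other 22 were not called, the median was −0.06, and 4 were higher without GMP replicate 1. Tet1, a 5-methylcytosine oxidase, differed by −3.20 ± 0.25 (SE, adjusted p = 3.7e-07, at least 7.99-fold) and the de novo methyltransferase Dnmt3b by −0.97 ± 0.18 (SE, adjusted p = 0.00065). Suz12 of polycomb complex 2 was lower at −1.80 ± 0.38 (SE, adjusted p = 0.0019), with GMP replicate 1 at 6.11 against 8.0005 to 8.48 in the other GMP, and its other probe sets were not called. The maintenance methyltransferase Dnmt1 was not called at −0.27 ± 0.18 (SE, adjusted p = 0.25).

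Of 40 adhesion genes 7 were higher, 17.5% against 22.8% over all genes, and 8 lower, 20% against 13%, with a median of −0.05. Ncam1, Epcam and the integrin Itga1 were higher by 2.63 ± 0.24 (SE, adjusted p = 1.6e-06, at least 5.67-fold), 2.10 ± 0.21 (SE, adjusted p = 2.9e-06) and 2.10 ± 0.21 (SE, adjusted p = 2.9e-06, at least 1.74-fold). For each of them the other probe sets were near or below background. Alcam and Cd93 were lower at −3.25 ± 0.26 (SE, adjusted p = 3.9e-07) and −2.41 ± 0.23 (SE, adjusted p = 1.7e-06), Cd93 with a dim probe set that was higher by 0.87, and the junction protein Esam and Icam1 by −1.69 ± 0.25 (SE, adjusted p = 0.00011) and −1.38 ± 0.26 (SE, adjusted p = 0.00073). Vcam1 was higher by 1.72 ± 0.49 (SE, adjusted p = 0.013, at least 2.02-fold) with overlapping groups.

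Of 42 Notch, Wnt and TGF-beta signalling genes 12 were lower, 28.6% against 13% over all genes. In GMP 4 were higher, 9.52% against 22.8%, and 26 were not called. Dtx4, a Deltex ubiquitin ligase of the Notch pathway, was higher by 2.38 ± 0.31 (SE, adjusted p = 3.8e-05) and the ligand Tgfb1 by 1.69 ± 0.30 (SE, adjusted p = 0.00049). The TGF-beta co-receptor Tgfbr3, the shared mediator Smad4 and the BMP receptor Bmpr2 were lower at −2.96 ± 0.27 (SE, adjusted p = 1.2e-06), −2.31 ± 0.26 (SE, adjusted p = 9.3e-06) and −1.70 ± 0.25 (SE, adjusted p = 9.3e-05). Other probe sets of Smad4 differed by −2.17 and by −0.23, the latter not called. Of 20 ABC transporters 6 were higher, 30% against 22.8% over all genes, and 5 lower, 25% against 13%. The cholesterol exporters Abca1 and Abcg1 were lower at −2.97 ± 0.23 (SE, adjusted p = 2.9e-07, at least 5.11-fold) and −1.61 ± 0.31 (SE, adjusted p = 0.00097), and Abca9 was higher by 1.67 ± 0.27 (SE, adjusted p = 0.00028, at least 1.14-fold).

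Bcl2 family genes were higher for 5 of 16 members, 31.25% against 22.8% over all genes, and lower for 3, 18.75% against 13%. The pro-death members split, with Bid and Bak1 higher by 2.69 ± 0.31 (SE, adjusted p = 1e-05) and 2.09 ± 0.23 (SE, adjusted p = 8.8e-06, at least 2.93-fold) and Bcl2l11, which encodes BIM, lower at −2.75 ± 0.24 (SE, adjusted p = 8e-07). Bcl2 was not called on its brightest probe set, at −0.07 ± 0.20 (SE, adjusted p = 0.81), and was lower at −1.54 and −0.60 on 2 others.

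**Figure D4:**
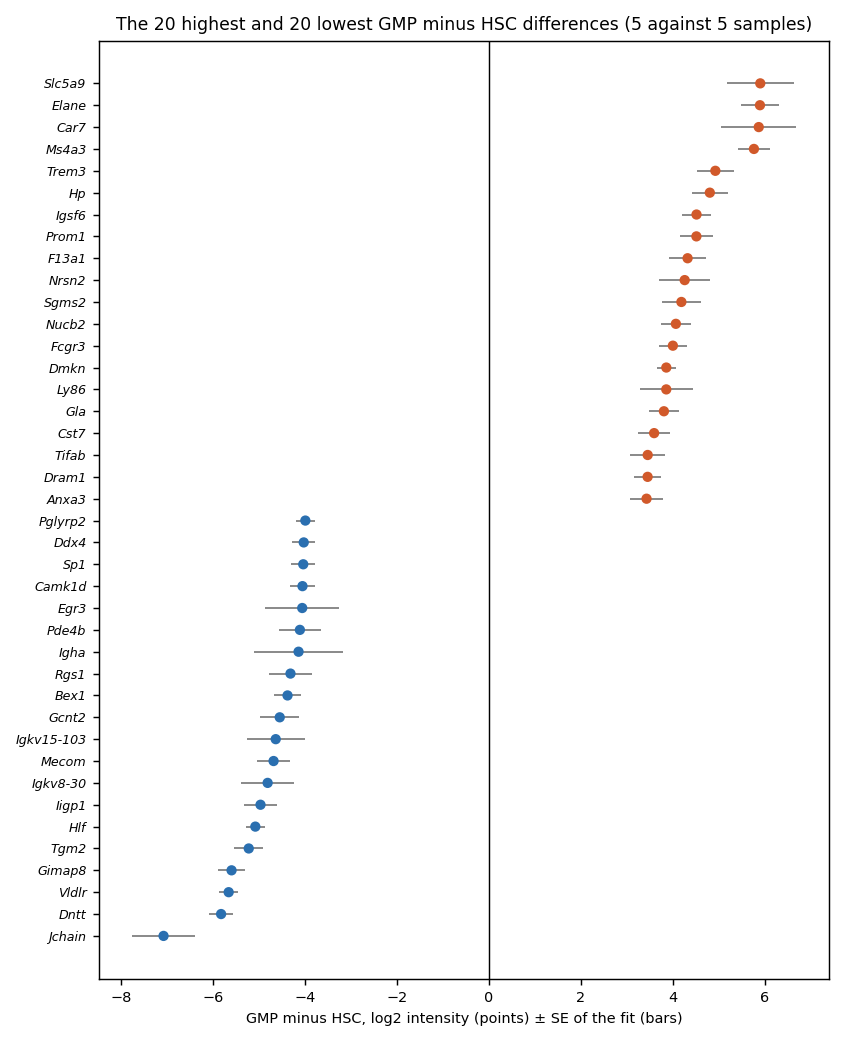
GMP minus HSC difference in log2 intensity, with the SE of the fit as bars, for the 20 genes with the highest and the 20 with the lowest difference among called genes whose brighter group was above background. Elane and Ms4a3 are near the top, Jchain, Dntt and Hlf near the bottom, and the bars are longest for Slc5a9, Car7, Egr3 and Igha. Fcgr3, a marker commonly used to sort these cells, is among the 20 highest.

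Several of the largest differences belonged to no list. Trem3, a receptor of myeloid cells, lay at 8.49, 10.30, 10.36, 10.06 and 10.14 in GMP replicates 1 to 5 and at 4.17, 4.45, 4.64, 5.26 and 6.202 in HSC replicates 1 to 5. The groups were far apart with GMP replicate 1 the lowest GMP, a difference of 4.93 ± 0.40 (SE, adjusted p = 4.4e-07). Prom1, the CD133 antigen, differed by 4.51 ± 0.36 (SE, adjusted p = 3.7e-07, at least 18.4-fold), Nucb2 by 4.07 ± 0.33 (SE, adjusted p = 4.2e-07, at least 12.5-fold), Dmkn by 3.86 ± 0.21 (SE, adjusted p = 1.7e-08, at least 6.81-fold) and Tifab by 3.45 ± 0.39 (SE, adjusted p = 8.7e-06). Gla, lysosomal alpha-galactosidase A, differed by 3.81 ± 0.33 (SE, adjusted p = 9.1e-07, at least 7.06-fold), and Sgms2, a sphingomyelin synthase, by 4.19 ± 0.42 (SE, adjusted p = 2.7e-06, at least 4.08-fold). Dram1, a lysosomal membrane protein of autophagy, and annexin A3 (Anxa3) differed by 3.45 ± 0.30 (SE, adjusted p = 7.7e-07) and 3.43 ± 0.37 (SE, adjusted p = 5.5e-06).

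Slc5a9, Car7 and Nrsn2 had large differences that rested on 1 probe set each. Slc5a9, a sugar transporter, lay at 9.38, 9.33, 8.80, 13.28 and 13.02 in GMP replicates 1 to 5 and at 4.77, 4.94, 4.82, 4.79 and 4.96 in HSC replicates 1 to 5. GMP replicates 4 and 5 were more than 3 log2 units above GMP replicates 1 to 3, and all GMP were above all HSC, a difference of 5.90 ± 0.73 (SE, adjusted p = 2.2e-05). Car7, a carbonic anhydrase, lay at 8.59, 8.40, 8.40, 13.10 and 12.79 in GMP replicates 1 to 5 and at 4.62, 4.41, 3.94, 4.54 and 4.43 in HSC replicates 1 to 5. It showed the same 2 levels within GMP, and its difference was 5.87 ± 0.81 (SE, adjusted p = 6.6e-05, at least 44.7-fold). Nrsn2, neurensin 2, lay at 6.04, 6.16, 5.65, 9.53 and 8.003 in GMP replicates 1 to 5 and at 2.44, 3.07, 2.88, 2.86 and 2.85 in HSC replicates 1 to 5, a difference of 4.26 ± 0.55 (SE, adjusted p = 3.6e-05, at least 4.94-fold). The other probe sets of these genes had group means of 2.37 to 4.18, below background in both groups. GMP replicates 4 and 5 were also the GMP without Y-linked signal. The 4 Mll-AF9 GMP, which also differ in genotype, had none either. They lay at 9.06 ± 0.46 (SD, n = 4) for Slc5a9, near the lower of the GMP levels. The cause of the 2 levels was not tested.

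On the HSC side Vldlr, the receptor for very low density lipoprotein, lay at 3.34, 3.85, 3.66, 3.47 and 3.44 in GMP replicates 1 to 5 and at 9.37, 9.09, 9.77, 8.96 and 8.88 in HSC replicates 1 to 5. GMP were all below background, a difference of −5.67 ± 0.21 (SE, adjusted p = 5.2e-10, at least 21.7-fold), and 4 of its 5 other probe sets were lower at −1.93 to −3.95. Gcnt2, a glycosyltransferase of the I antigen, differed by −4.55 ± 0.42 (SE, adjusted p = 1.5e-06), Bex1 by −4.38 ± 0.30 (SE, adjusted p = 1.2e-07), Rgs1, a brake on G protein signals, by −4.32 ± 0.46 (SE, adjusted p = 5.5e-06) and the cAMP phosphodiesterase Pde4b by −4.12 ± 0.46 (SE, adjusted p = 9.1e-06). Camk1d, a calmodulin-dependent kinase, differed by −4.06 ± 0.28 (SE, adjusted p = 1.2e-07, at least 7.52-fold), the germ cell helicase Ddx4 by −4.03 ± 0.24 (SE, adjusted p = 3.4e-08, at least 3.51-fold) and the peptidoglycan amidase Pglyrp2 by −4.0 ± 0.21 (SE, adjusted p = 1.1e-08, at least 4.71-fold). Sp1, a ubiquitous transcription factor, differed by −4.04 ± 0.27 (SE, adjusted p = 7.7e-08) on its brightest probe set, by −0.79 on another and by 0.49, not called, on the third.

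The same pair of populations from Mll-AF9 knock-in mice gave a reading on separate arrays. Mll-AF9 GMP against Mll-AF9 HSC had 3212 genes higher, 17.7% of those tested, and 2054 lower, 11.3%. Of the 4154 genes higher in wild-type GMP 96.8% had a positive difference in Mll-AF9, where 59.7% of all genes did, and of the 2364 lower 96.0% had a negative one. Called the same way in both genotypes were 2343 higher genes, 56.4% of the wild-type and 72.9% of the Mll-AF9 list, and 1547 lower genes, 65.4% and 75.3%. Elane, Ms4a3, Hlf and Dntt differed by 6.16 ± 0.39 (SE, adjusted p = 1.2e-07), 5.90 ± 0.50 (SE, adjusted p = 1.3e-06), −5.22 ± 0.24 (SE, adjusted p = 1.5e-08) and −5.35 ± 0.36 (SE, adjusted p = 2e-07) in Mll-AF9, close to their wild-type differences. Of 43 mitosis genes 30 were higher in Mll-AF9 GMP, where 17.7% of all genes were. In wild type 14 were higher, or 23 without HSC replicate 5. No mitosis gene was among those called in the test between genotypes below.

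**Figure D5:**
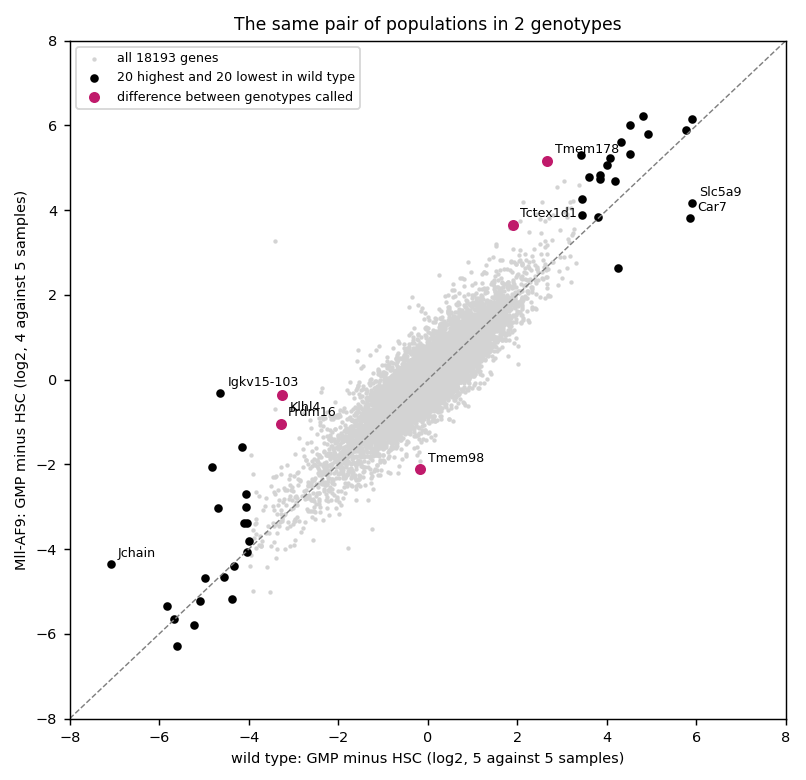
GMP minus HSC difference in log2 intensity in wild type (horizontal) and in Mll-AF9 (vertical) for all genes (grey), with the 20 highest and 20 lowest wild-type differences in black, the 5 genes whose difference between genotypes was called in magenta, and the line of equality dashed. Most black points lie near the line, and Klhl4 and Prdm16 lie well above it.

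The difference between the genotypes was tested itself, in a fit of all 4 groups. Wild-type GMP replicates 1 to 3 and HSC replicates 1 and 2 carried Y-linked signal, and no Mll-AF9 sample did (2.45 to 2.72). The part of this imbalance in the test was not tested. The GMP minus HSC difference was more positive in Mll-AF9 for 4 genes, 0.022% of those tested, and more negative for 1, 0.0055%. The counts go by sign, not by size. Without wild-type HSC replicate 5 the counts were 12 and 3, and without other single libraries as few as 1 was more positive, so the counts rest on single libraries. Klhl4, a kelch-like protein, was lower in wild-type GMP at −3.25 ± 0.25 (SE, adjusted p = 2.9e-07, at least 2.2-fold) and differed by −0.36 ± 0.24 (SE, adjusted p = 0.29) in Mll-AF9, a change of 2.89 ± 0.38 (SE, adjusted p = 0.0015). Prdm16 went from −3.28 ± 0.26 (SE, adjusted p = 3.8e-07, at least 5.18-fold) in wild type to −1.04 ± 0.27 (SE, adjusted p = 0.011), a change of 2.24 ± 0.39 (SE, adjusted p = 0.029). Tmem178 went from 2.67 ± 0.25 (SE, adjusted p = 1.4e-06, at least 1.72-fold) to 5.17 ± 0.33 (SE, adjusted p = 1.3e-07), a change of 2.50 ± 0.44 (SE, adjusted p = 0.029), and Tctex1d1 from 1.90 ± 0.22 (SE, adjusted p = 9.8e-06) to 3.66 ± 0.20 (SE, adjusted p = 4e-08), a change of 1.76 ± 0.31 (SE, adjusted p = 0.029). Tctex1d1 lay below background in both wild-type groups or close to it. Tmem98 was not called in wild type, at −0.16 ± 0.25 (SE, adjusted p = 0.64), and was lower in Mll-AF9 GMP at −2.12 ± 0.22 (SE, adjusted p = 1e-05), a change of −1.95 ± 0.34 (SE, adjusted p = 0.029). For the stem cell factors Hlf, Meis1 and Hoxa9 Mll-AF9 minus wild type was −0.13 ± 0.32 (SE, adjusted p = 0.95), 0.56 ± 0.34 (SE, adjusted p = 0.76) and 1.14 ± 0.32 (SE, adjusted p = 0.34), none of them called. For the immunoglobulin genes Jchain and Ighm it was 2.74 ± 1.39 (SE, adjusted p = 0.69) and 2.71 ± 0.63 (SE, adjusted p = 0.16), not called either.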

How the data were processed

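Sorted cells were profiled on Affymetrix Mouse430 2.0 arrays. The authors deposited linear intensities after RMA, per the submitters' processing notes, and log2 was taken of these deposited values. RMA includes a quantile normalisation that brings arrays to a common distribution of intensities, so absolute shifts in RNA content per cell are not seen. Sample medians over the genes used still ranged from 4.94 to 5.16 on the log2 scale. Of 45101 probe sets 34945 had 1 gene symbol, 932 several and 9160 none, and each of 18193 genes was read from its brightest probe set in the mean of the 10 samples. GMP and HSC, 5 samples each, were compared with limma 3.58.1 in R 4.3.3 (lmFit, eBayes with an intensity trend), with Benjamini-Hochberg adjustment and calls below 0.05. The procedure was tested on simulated data. The Mll-AF9 pair was fitted likewise, and the difference between genotypes in a fit of 4 groups.

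The members and gene lists were chosen with earlier results of these data known. Genes were named by a rule: the 20 highest and 20 lowest called genes above background, up to 5 called members per list and direction, up to 2 bright members not called, fixed key genes, and the genes whose difference between genotypes was called. Cebpe and Ly6a were not analysed here. Alternatives were other normalisation, probe set, filter, covariate, threshold and sample choices. Upstream sequences came from RefSeq (GRCm38.p6).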

Additional observations from a re-analysis of the deposited data

Results flagged for a closer look

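Of 490 values per group of 5 samples that were examined, 51, or 10.4%, had 1 sample whose gap to the nearest of the others exceeded Dixon's limit, where chance flags about 1 in 20 groups. GMP replicate 1 held 27 of them and HSC replicate 5 held 16. All values are log2 intensities.

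GMP replicate 1 lay below the other 4 samples for these list means, primary granule genes 9.90, oxidative phosphorylation genes 10.5, glycolysis and citrate cycle genes 8.57 and secretory pathway and endoplasmic reticulum genes 8.84. GMP replicate 1 lay below the other 4 samples for these genes, Elane 9.31, Prtn3 12.2, Ncf1 8.07, Kit 6.33, Hk2 5.63 and Hyou1 9.25. Further genes below the others there were Hspa5 9.998, Myb 11.2, H2-K1 8.48, H2-D1 8.14, Psmb8 8.96 and Suz12 6.11. Further genes below the others there were Dtx4 7.41, Trem3 8.49, Prom1 7.72 and Sgms2 4.70. GMP replicate 1 lay above the other 4 samples for these list means, myeloid cytokine receptors 6.503 and lymphoid priming genes 5.92. GMP replicate 1 lay above the other 4 samples for these genes, Ly86 10.6, Runx1 9.72, Jchain 5.44, Gins4 8.90 and Mcl1 11.4. The other GMP lay at 12.45 to 13.01 for Hspa5 and at 8.14 to 8.38 for Kit.

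HSC replicate 5 lay below the other 4 samples for these genes, Egr2 4.95, Hoxa5 6.33, Ighm 12.5 and Igkv8-30 7.21. HSC replicate 5 lay above the other 4 samples for these list means, primary granule genes 8.94, monocyte and macrophage genes 6.47, megakaryocyte and platelet genes 7.03 and interferon-induced genes 8.69. HSC replicate 5 lay above the other 4 samples for these genes, Igsf6 5.91, F13a1 8.02, Csf1r 10.4, Slpi 7.29, Il3ra 4.79 and Lyl1 9.28. Further genes above the others there were Oasl2 8.82 and Tgfb1 6.24. The other HSC lay at 14.004 to 14.25 for Ighm and at 8.10 to 8.83 for Egr2.

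GMP replicate 3 stood apart for Igha 4.81 against 5.45 to 5.64 in the others. GMP replicate 4 stood apart for Rtp4 6.02 against 5.30 to 5.36 in the others. GMP replicate 5 stood apart for Pglyrp2 3.55 against 2.74 to 2.94 in the others. HSC replicate 1 stood apart for Rbl2 6.27 against 6.70 to 6.87 in the others and Icam1 8.50 against 7.11 to 7.33 in the others. HSC replicate 2 stood apart for Zeb2 7.82 against 8.81 to 9.08 in the others. HSC replicate 4 stood apart for S100a8 10.6 against 7.17 to 7.83 in the others and Ngp 10.5 against 7.27 to 7.85 in the others.

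The GMP minus HSC difference itself differed between Mll-AF9 and wild type, by the test of that difference in limma, for 5 genes. Mll-AF9 minus wild type was 2.89 for Klhl4, 2.50 for Tmem178, 2.24 for Prdm16, 1.76 for Tctex1d1 and −1.95 for Tmem98.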

How the results depend on the processing

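Of 210 genes followed across the alternatives 185 were called, and 172 of them kept the call and its direction under each of the 22 alternatives other than the minimum 2-fold test, under which 121 kept it. Under that test 221 genes were higher and 397 lower. At an adjusted p below 0.01, 2365 genes were higher. With the mean of a gene's probe sets 909 were higher over 2-fold, and with all probe sets tested 2111 genes were lower over 2-fold. Leaving out each sample in turn gave 3376 to 4145 higher and 2032 to 2367 lower genes, and 1191 to 1635 and 1301 to 1427 over 2-fold. The mean of probe sets turned the direction of Ncf1 (1.44), Zeb2 (0.015), Runx1 (−0.72) and Mcm5 (0.0202), whose probe sets disagree, and leaving out GMP replicate 1 turned Hspa5 (−0.30 to 0.45 over the left-out samples). Klf4 lost its call in 14 alternatives, Chil3 in 11 and Cd74 in 7. The labels do not say whether the replicate numbers pair the samples. Deviations of same-numbered GMP and HSC correlated at 0.03 to 0.16, and 5 of 10 samples matched their own number best. Whether the numbers mark a pairing was not tested. With the replicate block 4083 genes were higher and 2463 lower, and 22 of 43 mitosis genes were higher. For the difference between genotypes the replicate block gave 14 genes more positive in Mll-AF9 and 3 more negative. All 8 groups in the fit gave 3 more negative, and no intensity trend gave 1 more positive and 2 more negative. Leaving out each sample gave 1 to 12 more positive and 0 to 3 more negative, and the cause was not tested. Without GMP replicate 1 and HSC replicate 5 together, chosen after seeing the data, 4218 were higher and 2421 lower. Levels below background carry little signal, and 5 arrays a group limit the precision.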

Other observations

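Of the 2364 genes lower in wild-type GMP 3 were called higher in Mll-AF9 GMP, and 1 of the 4154 higher genes was called lower there. Mid1, a ubiquitin ligase gene chosen here after its values were seen, was 1 of the former. It differed by −3.42 ± 0.70 (SE, limma adjusted p = 0.0016) in wild type and by 3.27 ± 1.11 (SE, limma adjusted p = 0.04) in Mll-AF9, and the difference between genotypes, 6.69 ± 1.45 (SE, limma adjusted p = 0.14), was not called. Its SD over the 5 Mll-AF9 HSC samples was 3.08.

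Xbp1, a factor of secretory cells looked at with the genes of antibody-secreting cells after their values were seen, lay at 10.7 to 11.3 in GMP and at 9.81 to 10.3 in HSC, the opposite order to Jchain. Prdm1, a factor of plasma cells, lay at 2.82 to 3.30 in GMP and at 3.50 to 4.80 in HSC, and Irf4 at 3.58 to 4.50 and 3.28 to 5.42, so most of their values were below background.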
